A study of Mus musculus with 68 samples.

Results

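Tgfbi and Postn encode the secreted fasciclin-domain proteins of the extracellular matrix, and are described here in the cartilage of the mouse growth plate, where long bones gain their length. They are 2 of the 23420 gene symbols in the deposited count table, and were followed over 68 laser-captured libraries from ethanol- and xylene-fixed sections. Both were selected on earlier results of the same data, in which Tgfbi was lower in the hypertrophic than in the proliferative zone at postnatal day 2 (P2). Results of the P2 hypertrophic zone were known at that choice. Its contrasts with the proliferative and the resting zone are therefore given as descriptions, with no test of the members. The symbols were taken as the table gives them, and columns that share a title were summed.

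The mice were of mixed background, and no transgene, mutation or treatment is given in the labels. Ethanol-fixed P28 sections gave 8 resting, 9 hypertrophic and 9 proliferative libraries, and ethanol-fixed P2 sections gave 9 resting, 8 hypertrophic and 8 proliferative libraries. Xylene-fixed P28 sections gave 4 resting, 5 hypertrophic and 5 proliferative libraries, and 1 animal at P3 gave 1 ethanol-fixed library per zone. Zones were picked by laser from frozen, stained 10-micron sections, and P28 animal B and P2 animal D can each be a pool, since their labels speak of more than 1 animal. Reserve chondrocytes of the resting zone divide slowly. Their descendants multiply in the columns of the proliferative zone and then swell in the hypertrophic zone, next to the bone front.

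Tgfbi, named for its induction by transforming growth factor beta (TGF-beta), binds collagens and integrins through its fasciclin domains and an RGD motif. Periostin, the product of Postn, is a related matrix protein of periosteum, tendon and other fibrous tissue, made by fibroblasts and osteoblast precursors, and it binds type I collagen and fibronectin. Both are known as TGF-beta response genes. The other fasciclin-domain genes, Stab1 and Stab2, encode scavenger receptors of macrophages and sinusoidal endothelium.

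In the GENCODE annotation of GRCm38, Tgfbi (ENSMUSG00000035493.10) lies on the plus strand at chr13:56609523-56639562, with 5 transcripts, of which 1 is protein coding with 17 exons. Postn (ENSMUSG00000027750.16) lies on the plus strand at chr3:54361109-54391037, with 9 transcripts, of which 5 are protein coding with 5 to 23 exons. The exons together span 3.77 kb in Tgfbi and 8.70 kb in Postn. The build named in the submitters' processing notes is mm10, the UCSC name of GRCm38, and the gene models behind the counts are not named in those notes.

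The promoter windows are shown because the members are known TGF-beta targets with unlike levels in this tissue. They come from RefSeq on GRCm38.p6, plus strand, and hold 250 bases before and 50 from each start site. Tgfbi has 1 window, at chr13:56609336-56609635, and Postn has 2, of which the one at chr3:54360857-54361156, next to the GENCODE gene start, is shown. Capitals mark matches on either strand to CAGAC (the core of the SMAD-binding element), to GGGCGG (the GC box) and to TATAAA (the TATA box).
Tgfbi: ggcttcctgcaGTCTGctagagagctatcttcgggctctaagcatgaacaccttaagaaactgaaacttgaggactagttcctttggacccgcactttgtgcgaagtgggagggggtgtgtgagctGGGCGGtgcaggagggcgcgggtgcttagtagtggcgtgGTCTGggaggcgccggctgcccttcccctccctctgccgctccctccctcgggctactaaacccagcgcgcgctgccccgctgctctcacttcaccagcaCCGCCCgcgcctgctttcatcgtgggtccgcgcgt
Postn: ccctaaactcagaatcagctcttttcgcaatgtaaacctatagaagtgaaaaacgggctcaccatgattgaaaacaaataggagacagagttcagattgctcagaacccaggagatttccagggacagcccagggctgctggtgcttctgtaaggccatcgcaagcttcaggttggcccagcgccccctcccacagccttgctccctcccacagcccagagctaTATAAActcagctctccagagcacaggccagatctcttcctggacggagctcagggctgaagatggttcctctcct
The Tgfbi window held CAGAC in 2 places, both on the minus strand and starting 239 and 85 bases before the start site. It also held GGGCGG in 2 places, and no TATAAA. The Postn window held TATAAA starting 26 bases before the start site, and neither CAGAC nor GGGCGG. Its other window, at chr3:54359017-54359316, held 1 CAGAC. Over all 32851 promoter windows in the RefSeq table, 49.6% held CAGAC, 35.7% GGGCGG and 13.6% TATAAA. The SMAD palindrome GTCTAGAC was in 0.213% of all windows and in neither gene's. The matches shown do not overlap each other. GC content was 63.3% in the Tgfbi window and 53.0% in the Postn window shown, against a median of 52.7% over all windows.

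Library totals ran from 748 to 3347722 counts, and single-library levels are counts per 1000000 (CPM) of the library's own total. Of 41 libraries with at least 100000 counts, 26 were ethanol-fixed P28 or P2 libraries and entered the tests, summed per animal and zone into 21 sums (3 animals per zone at P28, 4 at P2). At P2 only animals A, D and G had every zone, so zone tests within animals rest on these, while P2 means are over all 4 sums. The hypertrophic zone carried its defining marker in the tested libraries, while Mki67 was not higher in the proliferative than in the resting libraries. Col10a1, the collagen of hypertrophic chondrocytes, had a median of 57750 CPM in P28 and 24074 CPM in P2 hypertrophic libraries, and Mki67, a marker of dividing cells, a median of 0 in both. At P28 the median Mki67 level of resting libraries was 162.2 CPM, against 84.9 CPM for proliferative ones, and at P2 it was 327.6 CPM against 244.8 CPM. Proliferative libraries at P28 held a median of 1749 CPM of Col10a1. Several libraries stood apart. P28 hypertrophic replicate 8 and P2 hypertrophic replicate 3 held only 13080 and 20032 counts outside the symbols Rn45s, Lars2 and Glra2, which collect ribosomal RNA or repeat reads, and the first of them held 128.7 CPM of Col10a1. P28 resting replicate 1 held 14199 CPM of Col10a1. P2 resting replicate 8 held 128 Xist and 747 Y-linked counts, P3 proliferative replicate 1 held 355 and 311, and P28 proliferative replicate 9 held 267 and 0 although other libraries of its animal held Y-linked counts, so whether each comes from the animal named is in doubt. P28 hypertrophic xylene replicate 3 was low in Col10a1 and is described below with Postn.

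Tgfbi was not detected in the ethanol-fixed P28 hypertrophic zone and was abundant in the proliferative zone of P28 animals A, B and D. All 9 ethanol-fixed P28 hypertrophic libraries held 0 Tgfbi counts, over 2817525 counts in all, of which 610164 lay outside Rn45s, Lars2 and Glra2. The floor that 3 counts over these libraries set was 1.07 CPM. The 6 P28 proliferative libraries of at least 100000 counts held 165.7, 177.6, 326.4, 357, 384.2 and 478.7 CPM of Tgfbi. Among libraries of at least 100000 counts, the highest hypertrophic value thus lay below the lowest proliferative one. How many other genes part in this way was not counted. The shallower proliferative replicates 3, 4 and 7 held 67.7, 106.7 and 0 CPM. The last, the only proliferative library of animal C, held 872 counts in total.

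**Figure D1:**
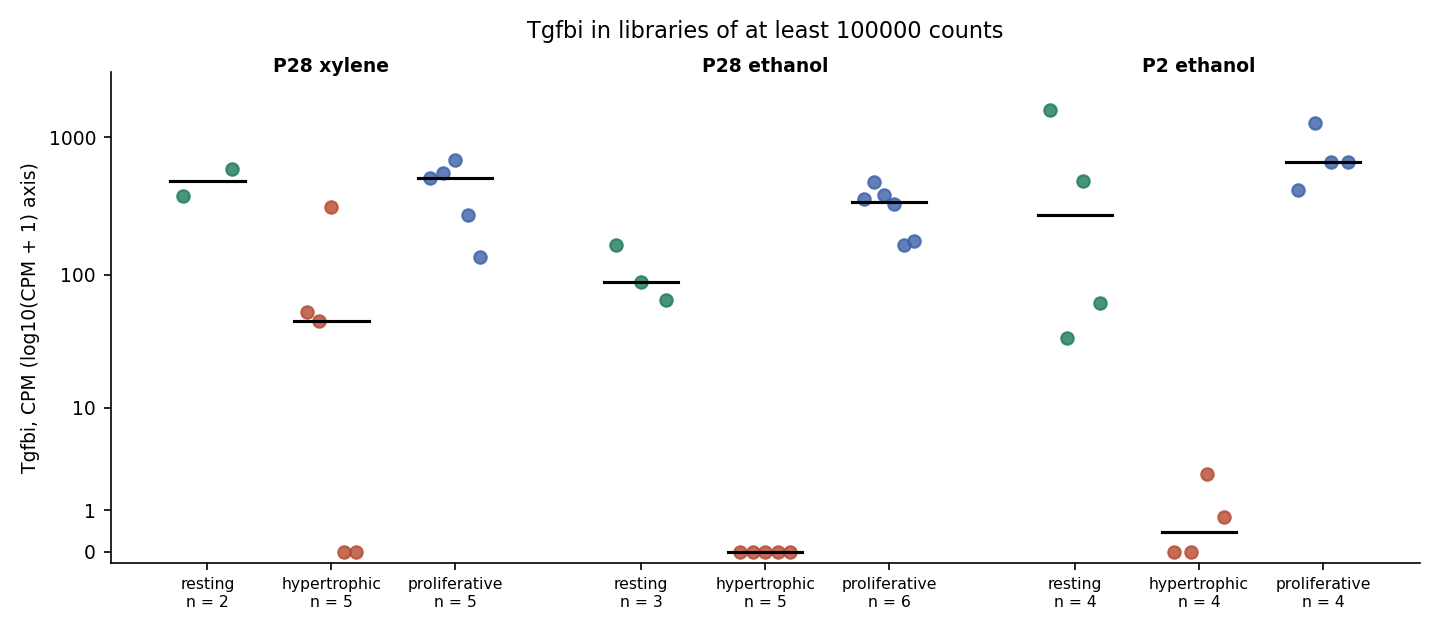
Tgfbi level in each library of at least 100000 counts, in CPM on a log10(CPM + 1) axis, by zone for xylene-fixed P28, ethanol-fixed P28 and ethanol-fixed P2 sections. Points are libraries and bars medians. The 5 ethanol-fixed P28 hypertrophic libraries lie at 0, the proliferative libraries of the same fixation between 165.7 and 478.7 CPM, and 1 xylene-fixed hypertrophic library at 313.6 CPM.

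After summing per animal and TMM scaling (trimmed mean of M-values), Tgfbi stood at 0 in the P28 hypertrophic sums and at 318 ± 37.7 CPM in the proliferative sums (SD, n = 3 animals each). At the proliferative level of the same animal, the hypertrophic sums would have held 41.9 counts in animal A, 88.1 in animal B and 139 in animal D. With 0 against 545 counts, the pooled level was at least 87.1-fold lower in the hypertrophic sums, taking 3 counts over the group as the floor. edgeR's quasi-likelihood test with Benjamini-Hochberg adjustment over 6958 genes called this fall (adjusted p = 1.98e-07), one of 78 genes called in the comparison, or 1.12% of those tested. The fitted log2 fold change of -11.18 ± 1.72 (SE) rests on a prior count and is no measure of size. Without P28 proliferative replicate 9 and P2 resting replicate 8, the tested libraries whose animal is in doubt, it was -10.57 (adjusted p = 2.36e-05). Without the 2 hypertrophic libraries of low non-ribosomal depth it was -11.28 (adjusted p = 2.02e-07). It was -6.21 with the xylene-fixed libraries added (adjusted p = 0.0303), and -7.07 when the xylene-fixed hypertrophic replicate 3, low in Col10a1, was then left out (adjusted p = 3.59e-05). In bulk captures, fewer cells of a type and less RNA per cell cannot be told apart.

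The P28 resting zone held Tgfbi at a low level in the tested ethanol-fixed libraries. Xylene-fixed resting libraries of at least 100000 counts held 373 and 586 CPM. Ethanol-fixed ones of at least 100000 counts had 65.3, 88.5 and 165.7 CPM. The highest of these is replicate 1, the resting library with Col10a1, and the part of that in its level was not tested. The sums stood at 74.1 ± 18.5 CPM in the resting and 0 in the hypertrophic zone (SD, n = 3 animals each), with 47 against 0 counts. Tgfbi was at least 20.7-fold higher in the resting sums, and the difference was called (adjusted p = 2.0e-04, edgeR's quasi-likelihood test), as were 1.77% of genes. The call was lost when the xylene-fixed libraries were added (log2 fold change 4.94, adjusted p = 0.0661) and when both animals that can be pools were left out (9.24, adjusted p = 0.161). With xylene-fixed hypertrophic replicate 3 left out, the first of these was 5.85 (adjusted p = 1.77e-04).

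Between the ethanol-fixed resting and proliferative zones at P28, Tgfbi was lower in the resting sum of each of the 3 animals tested. Animal A had 95.2 CPM in its resting and 336 CPM in its proliferative sum, a 3.53-fold lower level. Animal B had 60.9 and 275 CPM, which is 4.52-fold lower in the resting sum, and animal D had 66.1 and 344 CPM, 5.20-fold lower. The 3 resting sums did not overlap the 3 proliferative ones, and how many other genes part in this way was not counted. The single libraries met, since resting replicate 1 and proliferative replicate 8 both held 165.7 CPM. Over all genes the difference did not pass the test (log2 fold change -2.12 ± 0.88, SE; adjusted p = 0.34 by edgeR's quasi-likelihood test), where 0.561% of genes did. The median gene stood at -0.81 in this comparison. Outside the tests, the 3 P28 resting libraries of 83115 to 92552 counts held 12.03, 46.1 and 313.3 CPM, of which the last is within the proliferative range.

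**Figure D2:**
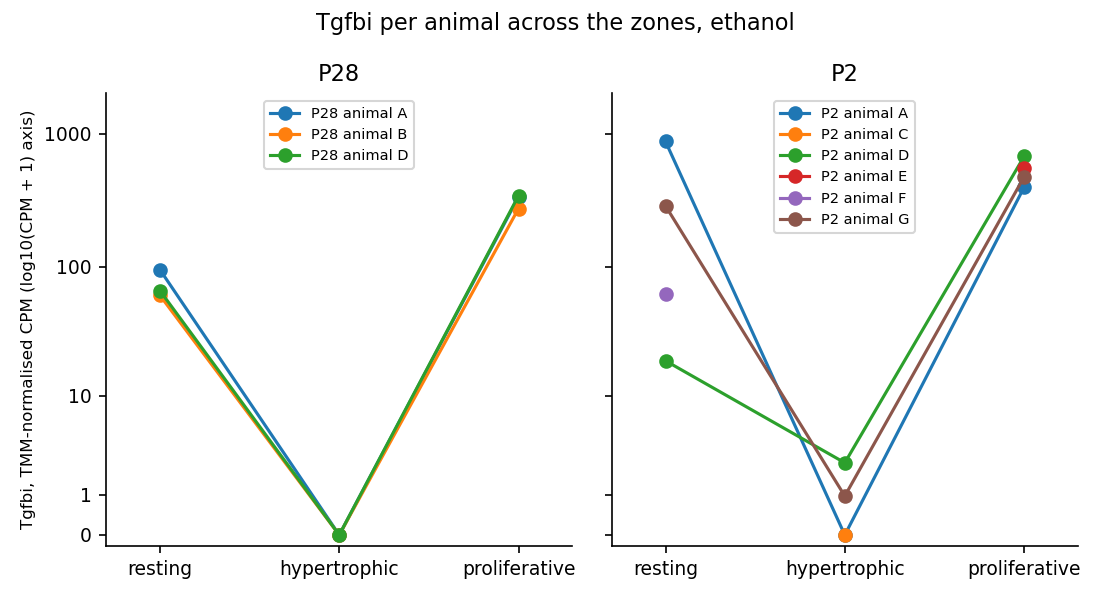
Tgfbi level of each animal's summed ethanol-fixed libraries in the resting, hypertrophic and proliferative zones at P28 and P2, in TMM-normalised CPM on a log10(CPM + 1) axis; lines join the zones of 1 animal. Hypertrophic sums lie between 0 and 2.46 CPM at both ages, and resting sums between 60.9 and 95.2 CPM at P28 but between 19.1 and 874.9 CPM at P2.

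At P2, in the contrasts on which Tgfbi was chosen, the hypertrophic zone was again near 0. The hypertrophic sums of animals A, C, D and G held 0, 0, 1 and 2 Tgfbi counts, while the proliferative sums of animals A, D, E and G held 58, 651, 82 and 1545. The means were 0.85 ± 1.16 CPM in the hypertrophic and 525.7 ± 119 CPM in the proliferative sums (SD, n = 4 animals each). The pooled ratio of 3 to 2336 counts, scaled by depth, was 0.00217, with an exact 95% interval of 4.47e-04 to 0.00634 that covers counting error only. Against the resting sums, with 2089 counts, the pooled ratio of resting over hypertrophic was 200.9 (68.6 to 974.9). Among all genes, 2.31% were called in hypertrophic against proliferative and 3.77% in resting against hypertrophic at P2, and nothing is read from either for Tgfbi, since these contrasts chose it.

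In the P2 resting zone Tgfbi varied widely between animals. The 4 libraries of at least 100000 counts held 34.5 CPM in animal D, 62.3 in animal F, 480.6 in animal G and 1574 in animal A. Animal E, whose resting library fell just short with 97514 counts, held 0, under a floor of 30.8 CPM. Resting and proliferative libraries overlapped, since the proliferative libraries ran from 412.7 to 1279 CPM.

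Within P2 animals the direction was mixed. Animal A had 874.9 CPM in its resting and 397 CPM in its proliferative sum, 2.21-fold higher in the resting zone. Animal D had 19.1 and 675.5 CPM, 35.4-fold lower in the resting sum, and animal G had 288 and 475 CPM, 1.65-fold lower. The sums averaged 311 ± 394 CPM in the resting and 525.7 ± 119 CPM in the proliferative zone (SD, n = 4 animals each). The difference within animals, which rests on animals A, D and G, was not called (log2 fold change -1.01 ± 1.0, SE, by edgeR's quasi-likelihood test), against 0.259% of genes called. It was 0.25 without animal D, and -1.46 without P2 resting replicate 8 and P28 proliferative replicate 9, the tested libraries whose animal is in doubt. The change of this contrast with age was not called either, at -1.12 ± 1.33 for P28 minus P2 (adjusted p = 0.932), where 0.144% of genes were.

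Other genes also set the P2 resting libraries apart. The library of animal A, highest in Tgfbi, held 12956 CPM of Col2a1, the main collagen of cartilage, against 88880 to 108123 CPM in those of animals D, F and G. It held 275.4 CPM of Ibsp, a bone matrix protein, against 0 to 0.897 CPM. Dcn, which encodes the fibrous-tissue proteoglycan decorin, ran from 452.5 CPM in animal A to 5233 CPM in animal D, which was lowest in Tgfbi. All 18 perichondrium and fibroblast markers summed to 1997 CPM in animal A and 11963 CPM in animal D. The part of these in the spread of Tgfbi was not tested.

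The single P3 animal had the zone order of the ethanol-fixed P28 sums, with 187 CPM in its resting, 11.8 CPM in its hypertrophic and 856 CPM in its proliferative library. That is 72.3-fold lower in the hypertrophic and 4.58-fold lower in the resting than in the proliferative library. Its hypertrophic library held 27 Tgfbi counts, more than all tested hypertrophic sums together. With 1 animal there is no replicate check, and the proliferative library is one of those whose animal is in doubt.

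Between the ages, Tgfbi did not pass the test in either zone where it could be fitted. In the resting zone it averaged 74.1 ± 18.5 CPM at P28 (n = 3 animals) and 311 ± 394 CPM at P2 (SD, n = 4 animals), with a log2 fold change of -1.89 ± 1.05 and an adjusted p of 0.586 by edgeR's quasi-likelihood test, against 0.872% of genes called. Without P2 animal A the difference was 0.55. In the proliferative zone it averaged 318 ± 37.7 CPM at P28 and 525.7 ± 119 CPM at P2, and the 3 P28 sums, from 275 to 344 CPM, lay below the 4 P2 sums, from 397 to 675.5 CPM. That difference of -0.82 ± 0.72 had an adjusted p of 0.998, against 0.679% of genes called. How many other genes separate the ages in this way was not counted. In the hypertrophic zone 0 and 3 counts are both at or under the floor, and no fold is given. Ordered by mean over animals, the levels ran from P2 proliferative through P28 proliferative, P2 resting, P28 resting and P2 hypertrophic to P28 hypertrophic, and the sums of each neighbouring pair overlapped except those of the proliferative zone at the 2 ages and those of P28 resting and P2 hypertrophic.

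Xylene-fixed P28 sections came from animals D and E. In animal E the resting library held 586 CPM of Tgfbi, the hypertrophic library 0 and the 2 proliferative libraries 134.9 and 273.8 CPM, so that the resting level was 2.37-fold higher than the pooled proliferative level. In animal D the resting library held 373 CPM, 1.61-fold below the pooled 600.2 CPM of the 3 proliferative libraries. The hypertrophic libraries of animal D fell into different levels. Replicates 1 and 2 held 53.5 and 45.7 CPM of Tgfbi with 9601 and 19859 CPM of Col10a1, whereas replicate 4 held 0 with 65447 CPM of Col10a1. In animal E, with 0 Tgfbi counts, Col10a1 stood at 72298 CPM.

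Animal D was also cut with ethanol fixation. Its Tgfbi levels were 366 CPM in xylene and 65.3 CPM in ethanol libraries of the resting zone, and 600.2 CPM in xylene and 173.7 CPM in ethanol libraries of the proliferative zone, all libraries of a zone pooled. In the hypertrophic zone the xylene libraries stood at 129.3 CPM, or 24.97 CPM without replicate 3, and the ethanol libraries at 0. Over counts outside Rn45s, Lars2 and Glra2 the resting levels were 578.5 CPM in xylene and 119 CPM in ethanol libraries, and the proliferative levels were 862.9 CPM in xylene and 422.7 CPM in ethanol libraries. The ethanol proliferative level pools replicate 8, at 165.7 CPM, with replicate 9, at 177.6 CPM, a library whose animal is in doubt. By the labels this comparison is of 1 animal, so fixation was not tested.

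Postn was found in quantity in a single library. Of 27243 Postn counts in the whole table, 27132, or 99.59%, lay in P28 hypertrophic xylene replicate 3, at 10143 CPM. There it was the 9th most counted symbol, and Tgfbi, with 839 counts and 313.6 CPM, the 213th. The other 4 xylene-fixed hypertrophic libraries held 0 to 2.06 CPM of Postn.

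That library differed from the others of its zone label in cartilage markers. Col10a1 stood at 32.9 CPM, against 9601 to 72298 CPM in the other 4 xylene-fixed hypertrophic libraries, Col2a1 at 70.3 against 39390 to 132456 CPM, and the hypertrophic signal Ihh at 0 against 93.1 to 501.9 CPM. Of the 7 hypertrophic zone markers 6 had counts, and their sum of 21253 CPM lay within the 17190 to 91546 CPM of the other 4 libraries. Most of that sum was Ibsp, with 18425 against 611.9 to 7228 CPM. The collagenase Mmp13 was also high, with 1074 against 0 to 35.8 CPM. Panx3 and Pth1r were lower than in the other libraries, and Alpl, a phosphatase of mineralising tissue, lay within their range. Type I collagen transcripts were instead abundant, with 62781 CPM of Col1a1 against 8.17 to 40.7 CPM, and 84909 CPM of Col1a2 against 240.3 to 1252 CPM. Col3a1, a collagen of soft connective tissue, had 15861 CPM against 3.27 to 4.11 CPM.

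All 18 perichondrium and fibroblast markers had counts in replicate 3 and summed to 176867 CPM, against 1246 to 2950 CPM in the other 4 libraries. Of 10 osteoblast and osteocyte markers, 9 had counts and Mepe was at 0, with a sum of 19166 against 861.1 to 8150 CPM. The 9 chondrocyte markers summed to 6650 against 126941 to 217613 CPM. Stab1 had 31 of its 52 counts in this library, and all 6 endothelial markers had counts, with a sum of 124.9 against 0 to 6.54 CPM. The part of these other cell types in its Postn and Tgfbi counts was not tested.

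**Figure D3:**
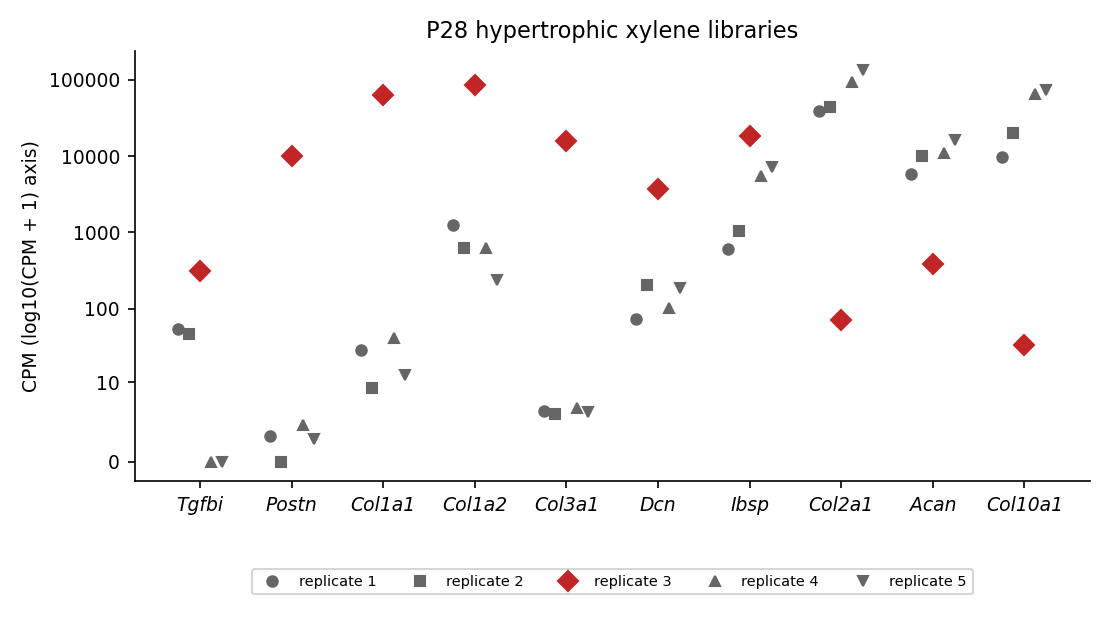
Levels of Tgfbi, Postn, connective tissue and bone genes and cartilage genes in the 5 xylene-fixed P28 hypertrophic libraries, in CPM on a log10(CPM + 1) axis. Replicate 3, in red, has 10143 CPM of Postn and 32.9 CPM of Col10a1; the other 4 have at most 2.06 CPM of Postn and at least 9601 CPM of Col10a1.

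Elsewhere Postn was at trace level. Outside replicate 3, 26 of 67 libraries held any Postn count, from 1 to 19 each and 111 in all, against 41550775 counts in total, or 2.67 CPM. Of the libraries with a coded description in the labels (deposit set A), 3 of 36 held a count. Of the others without one (deposit set B), 23 of 31 did, among them all 15 with at least 1000000 counts, at 0.433 to 10.0 CPM. No set A library held more than 609052 counts, so the shares of libraries with a count are not at like depth. Pooled, Postn stood at 1.691 CPM in set A and 2.815 CPM in set B. The zones overlapped throughout: the tested sums held 1 Postn count in P28 resting, 6 in P28 hypertrophic, 8 in P28 proliferative, 13 in P2 resting, 5 in P2 hypertrophic and 1 in P2 proliferative libraries. Postn did not pass the low-count filter, so it has no test beside those of Tgfbi. Without the filter, or where other settings let it enter, 0 of 42 fits had an adjusted p under the threshold, and the lowest was 0.752.

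**Figure D4:**
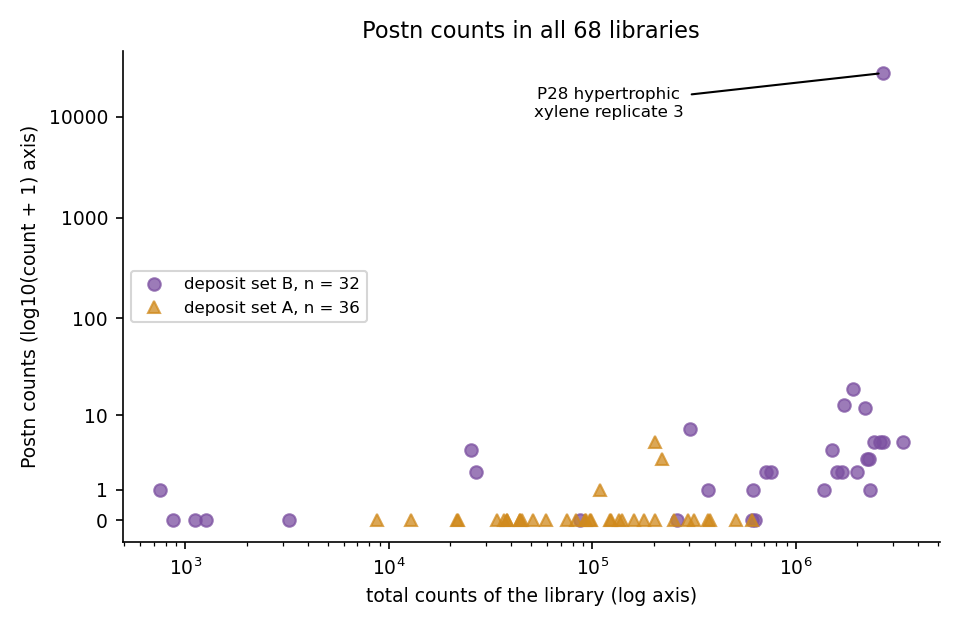
Postn counts of each of the 68 libraries (log10(count + 1) axis) against the library's total counts (log axis). Triangles are deposit set A and circles deposit set B; 1 library lies at 27132 counts and the others at 0 to 19.

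Compared per length, as CPM per kb of exon, Tgfbi stood above Postn in 30 of the 41 libraries of at least 100000 counts and Postn above Tgfbi in 7, while both were at 0 in 4. In P28 hypertrophic xylene replicate 3, Postn had 1166 and Tgfbi 83.2 CPM per kb, a ratio of 14.0. The other 6 were hypertrophic libraries with 0 to 2 Tgfbi counts. The remaining fasciclin-domain genes were also sparse outside that library, with 21 Stab1 counts in 4 libraries and 61 Stab2 counts in 7. Of the 4 genes only Tgfbi passed the low-count filter.

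Genes of the TGF-beta pathway were set beside Tgfbi, from a list of 23 ligands, receptors and signal carriers, of which 16 passed the low-count filter. In hypertrophic against proliferative zone 0 were called at P28 and 1 at P2, against 1.12% and 2.31% of all genes, and the median of the 16 was 0.67 at P28 and -0.96 at P2 against -0.52 and -0.36 for all genes. The gene called was the ligand Tgfb3, with 75.6 ± 60.9 CPM in the hypertrophic and 1.56 ± 3.11 CPM in the proliferative sums at P2 (SD, n = 4 animals each). It rose by 5.85 ± 1.71 on the log2 scale (adjusted p = 0.0328, edgeR's quasi-likelihood test), and its call stood in 12 of 23 alternatives. In resting against proliferative zone, 0 of 16 were called at either age, against 0.561% of all genes at P28 and 0.259% at P2.

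In resting against hypertrophic zone, 0 of the 16 were higher and 3 lower at P28, where 1.77% of all genes were called in either direction. At P2, 2 were higher and 1 lower, against 3.77% of all genes. Lower at P28 were Tgfb3, with 1 against 127 counts, and the signal carrier Smad4 and the inhibitor Smad7, with 0 counts in the resting sums against 71 and 83 in the hypertrophic ones. These make Smad4 at least 17.9-fold and Smad7 at least 20.9-fold lower, and their calls stood in 8 of 24 and 8 of 23 alternatives. That of Tgfb3 stood in 6 of 23. Higher at P2 were Ski, a repressor of the pathway, and the receptor Tgfbr2, with 780 and 304 counts in the resting sums against 0 in the hypertrophic ones. Between the ages, 8 of the 23 could be tested in each zone. The co-receptor Tgfbr3 was the one called, with 210.8 ± 161 CPM in P28 (n = 3 animals) and 8.68 ± 10.8 CPM in P2 resting sums (SD, n = 4 animals). Of all genes, 0.872% were called in the resting and 0.679% in the proliferative zone.

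Of 13 other TGF-beta response genes in the table, 7 could be tested across zones. Timp3, an inhibitor of matrix proteases, went the opposite way to Tgfbi in hypertrophic against proliferative zone, and was the 1 gene of the 7 called there at each age. Of all genes, 1.12% were called at P28 and 2.31% at P2. Timp3 is described here as a single gene. It had 1656 ± 453 CPM in the hypertrophic and 97.2 ± 67.0 CPM in the proliferative sums at P28 (SD, n = 3 animals each), a rise of 4.12 ± 0.86 (adjusted p = 6.73e-04, edgeR's quasi-likelihood test). At P2 it rose by 2.95 ± 0.82 (adjusted p = 0.0224), a call that stood in 11 of 24 alternatives. In resting against hypertrophic zone, Timp3 and Smad7, which is on both lists, were lower at P28, and the call of Timp3 stood in 10 of 24 alternatives. There 1.77% of all genes were called at P28 and 3.77% at P2. At P2 the cell cycle inhibitor Cdkn1a was lower, with 4 counts in the resting sums against 847 in the hypertrophic ones. In resting against proliferative zone 0 of 7 were called at either age. Of all genes, 0.561% were called there at P28 and 0.259% at P2, so nothing is read from the 0.

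Among 18 matrix partners in the table, 14 could be tested. In resting against hypertrophic zone, 0 were called at P28, and 3 were higher and 3 lower at P2, against 1.77% and 3.77% of all genes. Higher in the P2 resting zone were Dcn, Col1a2 and the proteoglycan gene Bgn, with 1951 ± 1203 CPM of Bgn in the resting and 163 ± 19.4 CPM in the hypertrophic sums (SD, n = 4 animals each). Lower were Lox and the type VI collagen genes Col6a2 and Col6a3, with 95.3 ± 96.1 CPM of Col6a3 in the resting and 379 ± 364 CPM in the hypertrophic sums. The calls of Lox, Col6a2 and Col6a3 stood in 11 of 21, 10 of 24 and 18 of 24 alternatives. Lox had 57 counts in the resting sums, at 6.44 ± 12.9 CPM, and 63 in the hypertrophic ones. Fn1, which encodes fibronectin, was higher in the hypertrophic than in the proliferative zone at both ages, with 2727 ± 765 and 378 ± 130 CPM at P28 (SD, n = 3 animals each; log2 fold change 2.89 ± 0.63, adjusted p = 0.00164 by edgeR's quasi-likelihood test). It was also higher in the P28 resting zone, with 2537 ± 846 CPM, than in the proliferative zone. Col12a1, a collagen that lies along collagen fibres, was the 1 partner lower in the P28 hypertrophic zone, with 177 ± 255 CPM against 1107 ± 381 CPM in the proliferative sums, and its call stood in 10 of 24 alternatives. Dcn was higher in the P2 resting zone than in the proliferative zone, with 1444 ± 1092 and 21.1 ± 27.6 CPM (SD, n = 4 animals each). Between the ages, Sparc, Col2a1, Col12a1 and Bgn were higher at P28 than at P2 in the proliferative zone, 4 of 13 tested against 0.679% of all genes. In the resting zone 0 of 13 were called, against 0.872% of all genes. Sparc, a collagen-binding protein of bone and cartilage matrix, had 19246 ± 4930 CPM in P28 (n = 3 animals) and 2859 ± 918.1 CPM in P2 sums (SD, n = 4 animals). The calls of Bgn and Col12a1 stood in 9 and 11 of 24 alternatives. Of 11 integrins and adhesion genes tested, 0 were called in any zone comparison at either age, where 0.259% to 3.77% of all genes were.

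Over the 21 sums, the genes whose level followed that of Tgfbi most closely were Birc5, Mki67, Ero1l, Gmppa and Col15a1, with Pearson's r of log2(CPM + 1) of 0.855, 0.841, 0.840, 0.833 and 0.826 among 6954 genes. The sums share animals, libraries and depth, and the hypertrophic sums of all 6 genes lie at or near 0, so these are descriptions. Birc5 and Mki67 act in dividing cells, Ero1l in oxidative protein folding, and Col15a1 encodes a basement membrane collagen. In P28 sums Mki67 averaged 118 CPM in the resting, 1.86 CPM in the hypertrophic and 88.9 CPM in the proliferative zone. Col15a1 averaged 13.1, 0.823 and 155 CPM in the same zones and was the 1 gene also among the top 5 by Spearman's rho. The lowest correlations were those of Ets1, Lipg and Phldb2, at -0.870, -0.863 and -0.861. No such ranking is given for Postn, which held 34 counts over the 21 sums.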

How the data were processed

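Counts were measured in 68 SMART-seq2 libraries of laser-captured growth plate zones. The deposited values are the authors' raw read counts per gene symbol, not normalized. The build mm10, the aligner STAR 2.5.2b, the counter featureCounts 1.5.3 (with Subread) and cutadapt are named in the submitters' processing notes. Annotation, strand setting and treatment of multi-mapped reads: not given in the sources used here. Since the SMART-seq2 method keeps no strand, overlapping antisense reads cannot be told apart. Of 100 columns, 32 pairs share a title; in the 25 pairs with at least 50 counted genes they differed by 0.937 to 1.03 in chi-square per gene, and all pairs were summed as repeat runs.

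Ethanol-fixed P2 and P28 libraries of at least 100000 counts (26 of 51, holding 108601 to 3347722 counts) were added up within each animal and zone, giving 21 sums. Labels differing only in a trailing number were taken as 1 animal. edgeR 4.0.16 in R 4.3.3 gave robust quasi-likelihood tests after filterByExpr and TMM scaling, with the animal as block for zones (8 residual degrees of freedom) and a deposit-set term for ages within a zone (4), Benjamini-Hochberg adjustment over all genes tested and a threshold of 0.05. A standard error is the size of the log2 fold change divided by the root of its F statistic. The pairing comes from the animal labels, and deviations from group means correlated between zones of 1 animal by -0.002 to 0.184 over 18 pairs. P2 animals C, E and F had 1 tested zone each and add nothing to the zone contrasts under the block. P-values rest largely on a spread that the fit shares across genes, and only in small part on that of a single gene between these animals. With the animal as block, the spread behind the zone tests is that of zone differences between animals. Sex is uneven over the ages, and intervals and floors of 3 counts cover counting error only. The code was tested on simulated data.

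Alternatives were RLE scaling, DESeq2 1.42.0, no filter, no animal block, minimums of 50000 and 200000 counts, removal of Rn45s, Lars2 and Glra2, separate animals for trailing numbers, xylene libraries added, thinned sums, no deposit-set term, each animal left out, and both animals labelled in the plural left out. Further alternatives were chosen after seeing the data: resting and proliferative sums only, libraries in doubt left out, and the P3 animal counted as P2. Named genes are the 2 members, the 5 highest and 3 lowest by Pearson correlation with Tgfbi, members of the lists that passed the threshold (at most 4 per list and comparison, by p), Stab1 and Stab2. One list member is not reported here. Members and lists were chosen with earlier results of these data known. P-values of genes at 0 counts in a group depend on few sums.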

Additional observations from a re-analysis of the deposited data

Results flagged for a closer look

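In groups of 4 to 10 libraries of at least 100000 counts, 13 sets of Tgfbi or Postn levels were examined for a library far from the others, and 7 had one. The cut-off would flag about 1 in 20 sets of normally distributed values. Most Postn sets are not of that kind, since a single library with counts where the others are at 0 is always flagged. The number of flags is therefore not set against chance. In xylene-fixed P28 hypertrophic sections, replicate 3 stood apart in both genes, with 10143 CPM of Postn against 0 to 2.06 CPM and 313.6 CPM of Tgfbi against 0 to 53.5 CPM in the other 4 libraries. Its Col10a1 level was 32.9 CPM, and its other markers are given with the Postn results.

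The other 5 rest on 1 to 7 Postn counts in 1 library each. P2 resting replicate 1 held 5 counts, or 24.6 CPM, against 0 to 1.49 CPM in the others. P28 proliferative replicate 8 held 7 counts, or 23.2 CPM, against 0 to 1.63 CPM. P28 hypertrophic replicate 6 held 3 counts, or 13.6 CPM, against 0 to 2.65 CPM. P2 hypertrophic replicate 8 held 5 counts, or 1.94 CPM, and P2 proliferative replicate 8 held 1 count, or 0.433 CPM, where the others were at 0.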

How the results depend on the processing

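The 7 Tgfbi comparisons with a test kept their direction and their side of the threshold in 163 of 171 alternatives. Each animal was left out in turn in every comparison, also where it held no sum of that comparison. Such alternatives could move a result only through the shared fit or not at all, so the tally overstates the number of real checks. Hypertrophic against proliferative at P28 was called in all 24, with adjusted p from 1.66e-09 to 0.0303. Resting against hypertrophic at P28 was not called with xylene-fixed libraries added (4.94) or without both animals labelled in the plural (9.24). It ran from 8.17 to 9.24 with 1 animal left out, and from 8.91 to 9.24 where that was a P28 animal. The uncalled differences changed sign as follows; the cause was not tested. Resting against proliferative at P2 was 0.26 without both plural animals, and -2.38 to 0.25 with 1 animal left out. Its change with age was 0.08 at a minimum of 50000 counts, 0.13 without Rn45s, Lars2 and Glra2, and -2.27 to 0.27 with 1 animal left out. The age difference in the resting zone was -2.57 to 0.55 with 1 animal left out. Without the animal as block, the paired zone differences of Tgfbi were -11.22 for hypertrophic against proliferative, 9.12 for resting against hypertrophic and -2.1 for resting against proliferative at P28, and -8.62, 7.85 and -0.76 for these at P2; their change with age in resting against proliferative was -1.34. No call changed in those that were tested, which leaves out the P2 contrasts with the hypertrophic zone. The 5 genes most like Tgfbi by Pearson shared 1 with those by Spearman. Counts of genes called over the whole table moved further: 78 in hypertrophic against proliferative at P28 became 8 without the plural animals and 502 by DESeq2, and 39 in resting against proliferative at P28 became 2 without the block and 470 by DESeq2. Depth limits the P28 resting values, where 3 sums held 12 to 18 Tgfbi counts each, and Postn, which held 34 counts over the tested sums.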
